A study of Mus musculus with 4 samples.

Results

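Rods that held transcripts of Edn2, which encodes the secreted peptide endothelin-2, and few interferon-response transcripts were followed through 4 single-cell RNA libraries of mouse retina. A cell counted as a rod when Rp1, Nr2e3, Pde6a and Cnga1 together reached 30 per 10000 UMIs of the cell (unique molecular identifiers, 1 per captured transcript) and fewer than 3 of 6 cone genes and fewer than 3 of 5 Müller genes were seen. Of 9547 such rods among 26543 cells, 713 had at least 1 Edn2 UMI and fewer than 3 of 10 interferon genes (Irf7, Bst2, Gbp7, Irgm1, Oasl2, Ddx58, Parp9, Rtp4, Igtp and Stat2), and they are called members below. The 8525 rods with no Edn2 UMI and the same limit on interferon genes are called Edn2-negative rods. Edn2 and the gate genes chose the cells, so their levels are given as a description, with no test.

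Every retina came from 6-week-old Abca4-/-Rdh8-/- mice with a C57BL/6J background, so every group lacked both genes that help clear all-trans-retinal after light. The rolipram group received 2 mg/kg of rolipram, a phosphodiesterase 4 inhibitor, before 30 min of white light at 10000 lux, and the BC11-38 group 2 mg/kg of BC11-38, a phosphodiesterase 11 inhibitor, before the same light. The bleached vehicle group had the light and DMSO, and these 3 groups were sampled 1 day later. The unbleached vehicle group had DMSO and no bleaching light. The bleached groups were kept in the dark for 24 h and given tropicamide before the light, steps that are not recorded separately for the unbleached group. Each group was 1 library made from 4 pooled retinae of 2 mice, so no difference between groups has a replicate, and intervals between libraries cover counting error only.

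Rods are the light sensors of dim vision and keep a stack of light-sensitive discs in an outer segment. In injured mouse retina, photoreceptors are known to make endothelin-2, and Müller glia carry its receptor, endothelin receptor B, so the peptide is regarded as a signal from damaged photoreceptors to glia. Endothelin genes are few: Edn1, Edn2 and Edn3 encode the peptides, Ece1 and Ece2 the enzymes that cut out the active peptide, and Ednra and Ednrb the receptors.

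The libraries held 31544696 (rolipram), 28983626 (BC11-38), 44386442 (bleached vehicle) and 35495396 (unbleached vehicle) UMIs, and 92 cell barcodes occurred in more than 1 library, 2 of them members' barcodes. Xist was seen in 51.6%, 48.8%, 0.176% and 48.1% of cells in that order, so the bleached vehicle library held almost no Xist-positive cells, and sex cannot be told apart from treatment in comparisons with it. Abca4 still gave 50.7 to 62.3 CPM (UMIs per 1000000 UMIs of the class) in members and Rdh8 0 to 10.1 CPM, and since both genes are disrupted in every group and reads outside the deleted part check nothing, these values do not bear on the labels.

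Edn2 lies on mm10 chromosome 4, plus strand, from 120161206 to 120167360, and the 250 bases before its RefSeq start (GRCm38.p6, chr4:120160956-120161205, plus strand) are shown because this gene defines the cells.
Edn2 promoter: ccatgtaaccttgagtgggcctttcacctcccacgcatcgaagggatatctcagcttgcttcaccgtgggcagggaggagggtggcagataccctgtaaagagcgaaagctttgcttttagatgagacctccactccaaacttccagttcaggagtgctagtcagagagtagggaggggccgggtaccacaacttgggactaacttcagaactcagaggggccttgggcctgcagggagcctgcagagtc
None of 6 motifs searched on both strands was found in this window: AP-1 (TGANTCA), STAT (TTCNNNGAA), the hypoxia-responsive core (ACGTG), the cAMP response element (TGACGTCA), CRX (GGATTA) and the interferon-stimulated response element. Among 32851 RefSeq promoter windows of that length, 6.75%, 7.02%, 16.6%, 1.55%, 6.25% and 2.98% held them in that order. Nothing follows from these letters about factors that bind elsewhere.

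Members numbered 94 with rolipram, 5 with BC11-38, 424 among bleached vehicle rods and 190 among unbleached vehicle rods. They were 3.61% of 2606 rolipram rods (exact 95% interval 2.92 to 4.40%) and 0.220% of 2274 BC11-38 rods (0.0714 to 0.512%). In the vehicle libraries they were 18.0% of 2355 bleached rods (16.5 to 19.6%) and 8.22% of 2312 unbleached rods (7.13 to 9.41%). The 4 intervals did not overlap, with bleached vehicle rods highest and BC11-38 rods lowest. A rod with no captured Edn2 UMI may still hold the transcript, so fewer rods with Edn2 and less Edn2 per rod cannot be told apart.

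The order was the same at equal depth. With every rod thinned to 2000 UMIs, which left 433 rolipram, 563 BC11-38, 464 bleached vehicle and 714 unbleached vehicle rods, members were 3.93% (2.30 to 6.21%) with rolipram, 0.355% (0.0431 to 1.28%) with BC11-38, 17.7% (14.3 to 21.5%) in bleached vehicle and 7.56% (5.73 to 9.75%) in unbleached vehicle. At that depth the rolipram and unbleached vehicle intervals overlapped. Among rods with a Y-linked and no Xist UMI, they were 3.40% (2.09 to 5.20%), 0.521% (0.108 to 1.51%), 19.6% (17.2 to 22.0%) and 11.5% (8.99 to 14.4%) in the same library order. Among rods with Xist and no Y-linked UMI they were 2.52% (1.67 to 3.65%) with rolipram, 0.101% (0.00255 to 0.559%) with BC11-38 and 5.08% (3.81 to 6.63%) in unbleached vehicle, while bleached vehicle had 1 such rod. In the unbleached library the intervals of the 2 kinds of rod did not overlap. With 2 mice in each library, sex and mouse cannot be told apart there.

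**Figure D1:**
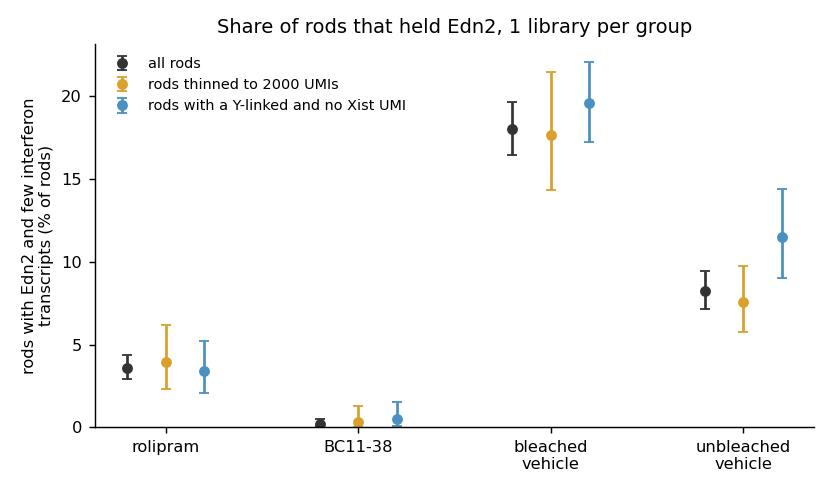
Members as a percentage of rods in each library, for all rods, rods thinned to 2000 UMIs and rods with a Y-linked and no Xist UMI. Points are shares and bars exact 95% intervals for counting error. Bleached vehicle stood at 18.0%, unbleached vehicle at 8.22%, rolipram at 3.61% and BC11-38 at 0.220% over all rods.

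Most members carried little Edn2. Of the 713, 541 (75.9%) had 1 UMI, 120 had 2, 41 had 3 and 11 had 4 or more, with 5 the highest. Scaled to the cell's total this ranged from 1.26 to 72.5 per 10000 UMIs, with a median of 7.92. The libraries were alike in this spread: 1 UMI was found in 83.0% of rolipram members, 4 of 5 BC11-38 members, 74.8% of bleached vehicle members and 74.7% of unbleached vehicle members. Members held 951 of the 1383 Edn2 UMIs in the series. On the rod sum, the lowest member had 30.06 per 10000 and the nearest Edn2 cell outside the gate 29.85, with a median of 85.1 among members. Among rods with Edn2, 519 had none of the 10 interferon genes, 148 had 1 and 46 had 2, and just outside the rule 16 had 3 and 14 had 4.

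Edn2 was mainly a rod transcript, and it varied with the libraries in the other cell classes too. Over all rods it stood at 29.7 CPM with rolipram (24.5 to 35.8), 1.65 CPM with BC11-38 (0.607 to 3.60, from 6 UMIs), 176 CPM in bleached vehicle (163 to 189.99) and 65.2 CPM in unbleached vehicle (57.7 to 73.4). Cones, gated by 3 or more of the 6 cone genes, held 1.38, 0.560, 18.7 and 6.07 CPM in the same order of libraries. Müller glia held 1.37, 0.234, 3.35 and 1.04 CPM, bipolar cells 0.900, 0, 5.61 and 1.26 CPM, and amacrine cells 1.24, 0, 6.22 and 0.669 CPM. Every class was highest in bleached vehicle.

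With every cell thinned to 1000 UMIs, Edn2 was seen in 2.70% of rolipram, 0.184% of BC11-38, 14.3% of bleached vehicle and 6.31% of unbleached vehicle rods. The highest share in another class was 1.65% (0.713 to 3.22%), in bleached vehicle amacrine cells, a class taken here as a guide to free RNA. In BC11-38 the rod share was 0.184% (0.0380 to 0.538%), against 0.166% of Müller glia (0.00421 to 0.922%, from 1 cell) and 0% of cones, bipolar and amacrine cells, which allows up to 0.621%, 0.288% and 0.363%. These intervals overlapped, while without thinning the BC11-38 rod level of 1.65 CPM (0.607 to 3.60) lay above the upper limits of 0.503 CPM for bipolar and 0.444 CPM for amacrine cells. Cones at 0.560 CPM (0.0678 to 2.02) and Müller glia at 0.234 CPM (0.00591 to 1.30) had intervals that overlapped the rod interval. In rolipram the rod share was 2.70% (2.02 to 3.54%) against 0.163% of cones, 0.0845% of Müller glia, 0.113% of bipolar and 0.186% of amacrine cells.

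**Figure D2:**
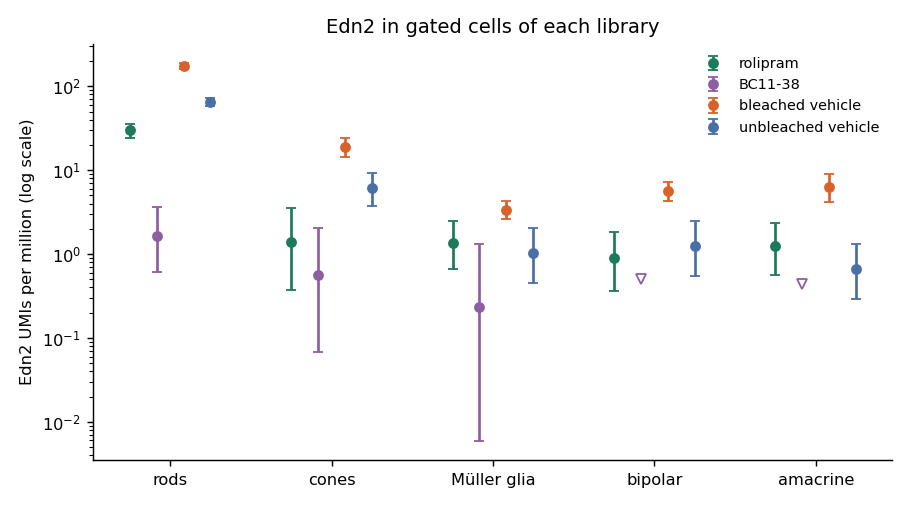
Edn2 level in CPM (log axis) in gated rods, cones, Müller glia, bipolar and amacrine cells of each library. Points are summed levels, bars exact 95% counting intervals, and open triangles the upper limits of classes with 0 UMIs. Rods held the highest level in each library, from 1.65 CPM with BC11-38 to 176 CPM in bleached vehicle. With BC11-38 the rod interval overlapped those of cones and Müller glia.

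The rod identity of the members was checked on genes outside the rule. Nrl, the transcription factor that sets rod fate, stood at 1117, 951 and 1152 CPM in rolipram, bleached vehicle and unbleached vehicle members, against 1541, 959 and 1277 CPM in Edn2-negative rods. Opn1sw, a cone opsin, was at 19.0 to 34.5 CPM in members and 2304 to 5757 CPM in cones of the same libraries. The label of rods therefore held on these genes.

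The other endothelin genes were almost absent from members. Edn1, Edn3, Ednra and Ece1 had 0 UMIs in members of all 4 libraries. Ece2 stood at 0, 0, 1.35 and 2.54 CPM in rolipram, BC11-38, bleached vehicle and unbleached vehicle members. Ece1 was instead found in Müller glia (40.3, 51.1, 33.5 and 32.0 CPM), cones (83.1, 64.1, 40.1 and 63.1 CPM) and amacrine cells (55.0, 54.9, 54.2 and 53.2 CPM) in that order of libraries.

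The receptor gene Ednrb was highest in Müller glia of the library with most Edn2 rods. It stood at 27.6 CPM in rolipram, 26.2 CPM in BC11-38, 246 CPM in bleached vehicle and 66.9 CPM in unbleached vehicle Müller glia. Bipolar cells held 12.0, 30.7, 16.7 and 16.3 CPM in the same order, above Müller glia in BC11-38. In members Ednrb had 13.8, 0, 1.35 and 0 CPM, from only 2 UMIs in rolipram and 1 in bleached vehicle. Lif, a cytokine that is known to induce Edn2 in mouse photoreceptors, was also found mainly in Müller glia, at 9.83 CPM in rolipram, 1.63 CPM in BC11-38, 60.8 CPM in bleached vehicle and 10.4 CPM in unbleached vehicle. Lif in members was at 0 in 3 libraries and 1.35 CPM, from 1 UMI, in bleached vehicle. Fgf2, a growth factor of stressed photoreceptors, stood at 13.8, 66.4 and 40.6 CPM in rolipram, bleached vehicle and unbleached vehicle members, against 16.0, 45.9 and 18.6 CPM in Edn2-negative rods. Its rolipram member value came from 2 UMIs.

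Edn2 was also found in rods outside the rule that held 3 or more interferon genes. In bleached vehicle, Edn2 was seen in 51 of 247 rods with 3 or more interferon genes (20.6%, 15.8 to 26.2%) and in 424 of 2108 rods with fewer (20.1%, 18.4 to 21.9%). In unbleached vehicle it was seen in 13 of 60 rods with 3 or more (21.7%, 12.1 to 34.2%), against 8.44% of the rest (7.32 to 9.66%). Those 60 rods were deeper, with a median of 2357.5 UMIs against 1506. Thinned to 1000 UMIs the unbleached shares were 12.5% (5.18 to 24.1%) and 6.16% (5.03 to 7.45%), with overlapping intervals. Rolipram and BC11-38 had 1 interferon-positive rod each, so no such share could be given there.

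Members were next set against Edn2-negative rods of the same library, with UMIs summed per class and the library as a block. Rolipram, bleached vehicle and unbleached vehicle entered, while BC11-38, with 5 members, fell below the minimum of 20. The 3 libraries differ in treatment, so the spread between them includes it. Edn2-negative rods may include rods whose Edn2 was not captured, and their part was not measured and may differ between libraries. Members had somewhat more UMIs per cell, with medians of 1310, 1563.5 and 1738 in rolipram, bleached vehicle and unbleached vehicle, against 1221, 1317.5 and 1474.5 in Edn2-negative rods. They also held fewer Xist-positive cells in rolipram (39.4% against 45.6%) and unbleached vehicle (30.5% against 49.2%). The shared limit on interferon genes did not make the groups equal. Some interferon gate gene was seen in 10.6%, 31.6% and 26.3% of rolipram, bleached vehicle and unbleached vehicle members. In Edn2-negative rods the shares were 6.57%, 27.8% and 14.8%.

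By limma's trend fit with Benjamini-Hochberg adjustment, 0 of 10067 genes were called higher (0.0%) and 0 lower (0.0%) at an adjusted p under 0.05, with 289 higher and 388 lower at an unadjusted p under 0.05. With precision weights for the unequal UMI totals (limma-voom, chosen after the data were seen), 71 genes were called higher (0.705%) and 16 lower (0.159%), with 561 and 311 at an unadjusted p under 0.05. Without the unbleached vehicle library the trend fit called 8 higher and 2 lower, without bleached vehicle 38 and 30, and without rolipram 21 and 14. The weighted fit called 19 and 5, 108 and 28, and 51 and 21 in the same order. With both classes limited to the depths between the members' quartiles, the weighted fit called 0 higher and 2 lower, and in rods with a Y-linked and no Xist UMI 0 and 0. Of the genes named below, only Vax2os was still called in that depth range, so the other weighted calls rest on all rods. Of the 87 weighted calls, 78 had 1 direction in all 3 libraries, and 12.4% of all tested genes were higher and 17.9% lower in all 3. In the weighted fit, the 24 genes named from these calls kept their sign in that depth range (22 of 22 tested) and in the Y-linked rods (21 of 21), with 1 and 0 of them called. Both settings use part of the same rods that chose these genes, so the kept signs are no separate support.

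Myo10 and E2f6 led the 14 genes named higher whose levels rested on more than a few UMIs in each library. Myo10, an unconventional myosin of filopodia, stood at 317 CPM in rolipram, 344 CPM in bleached vehicle and 269 CPM in unbleached vehicle members, against 84.9, 235 and 136 CPM in Edn2-negative rods. The members were above the Edn2-negative rods in each library, and the 3 member levels lay closer together than the Edn2-negative levels. The log2 difference was 1.14 ± 0.21 (SE, n = 3 libraries; limma trend, adjusted p = 0.46; called with weights). E2f6, a transcriptional repressor of the E2F family, stood at 96.6, 167 and 96.4 CPM in members, against 24.9, 93.5 and 48.5 CPM in Edn2-negative rods (log2 difference 1.25 ± 0.23 SE). Both genes were higher in members of all 3 libraries with ratio intervals above 1.

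Pmvk, a kinase of the mevalonate pathway, stood at 214, 188 and 149.7 CPM in rolipram, bleached vehicle and unbleached vehicle members, against 74.1, 134 and 95.9 CPM in Edn2-negative rods. Antxr2, an anthrax toxin receptor that binds matrix proteins, stood at 75.9, 98.9 and 81.2 CPM in members, against 27.4, 62.5 and 47.4 CPM. For these 2 genes as well, the ratio intervals lay above 1 in each library. Col4a1, a basement membrane collagen, was at 27.6, 75.9 and 40.6 CPM against 10.5, 50.8 and 18.3 CPM, and Pcolce, which enhances procollagen processing, at 27.6, 111 and 45.7 CPM against 9.40, 60.5 and 29.7 CPM. Their rolipram values came from 4 UMIs each, and those intervals spanned 1, as did that of Pcolce in unbleached vehicle.

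Nr4a1, an immediate early orphan nuclear receptor, stood at 48.3, 81.3 and 60.9 CPM in rolipram, bleached vehicle and unbleached vehicle members, against 17.4, 60.9 and 28.3 CPM in Edn2-negative rods. Syngr3, a synaptic vesicle protein, was at 34.5, 78.6 and 53.3 CPM against 18.8, 47.6 and 33.5 CPM, and Gtf3a, the transcription factor of 5S ribosomal RNA, at 48.3, 65.0 and 73.6 CPM against 26.0, 47.2 and 32.7 CPM. Nin, which encodes the centrosomal protein ninein, was at 13.8, 58.3 and 55.8 CPM against 12.2, 35.9 and 18.6 CPM. Lin7b, a scaffold protein of cell junctions, stood at 13.8, 81.3 and 40.6 CPM against 6.08, 35.5 and 19.95 CPM, and its log2 difference was -0.89 in the trend fit and 0.75 in the weighted fit within the member depth range, and -0.31 and 1.11 in Y-linked rods. Ratio intervals spanned 1 for Nr4a1 in bleached vehicle, Syngr3 in rolipram and unbleached vehicle, Gtf3a in rolipram and bleached vehicle, and Nin and Lin7b, with 2 UMIs each, in rolipram. Gm45184, 1500035N22Rik and 2900057B20Rik complete the 14, from at most 22 member UMIs in a library.

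The 10 named lower genes included rod genes. Vax2os, an RNA transcribed antisense to Vax2, had the smallest adjusted p of the named genes: it stood at 662 CPM in rolipram, 1024 CPM in bleached vehicle and 720.4 CPM in unbleached vehicle members, against 1322, 1457 and 1074 CPM in Edn2-negative rods (log2 difference -0.69 ± 0.10 SE, limma trend adjusted p = 0.14). Whether counting used strand is not given in the sources used here, so Vax2os cannot be told apart from its partner. Slc6a6, the taurine transporter, stood at 1289.8, 1009 and 911 CPM in members, against 1662, 1229 and 1229 CPM. Pde6b, the beta subunit of the rod phosphodiesterase, was at 1752, 1302 and 1400.3 CPM, against 2091, 1438 and 1702 CPM. Every one of these ratios lay below 1 with its interval.

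Rdh12, a photoreceptor retinol dehydrogenase that reduces retinaldehydes, stood at 504, 558 and 632 CPM in rolipram, bleached vehicle and unbleached vehicle members, against 855, 611 and 778 CPM in Edn2-negative rods. In bleached vehicle its ratio interval reached 1.02. Col5a3, a fibrillar collagen chain, was at 55.2, 50.1 and 20.3 CPM against 100.6, 91.9 and 75.4 CPM, and Slc38a2, an amino acid transporter, at 131, 196 and 185 CPM against 137, 279.7 and 319.8 CPM. The rolipram intervals of Col5a3 (0.235 to 1.09) and Slc38a2 (0.573 to 1.51) also spanned 1. Fam3c, Peg3, Tnks2 and Epb41l2 were the others, with member over Edn2-negative ratios from 0.428 to 0.927.

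**Figure D3:**
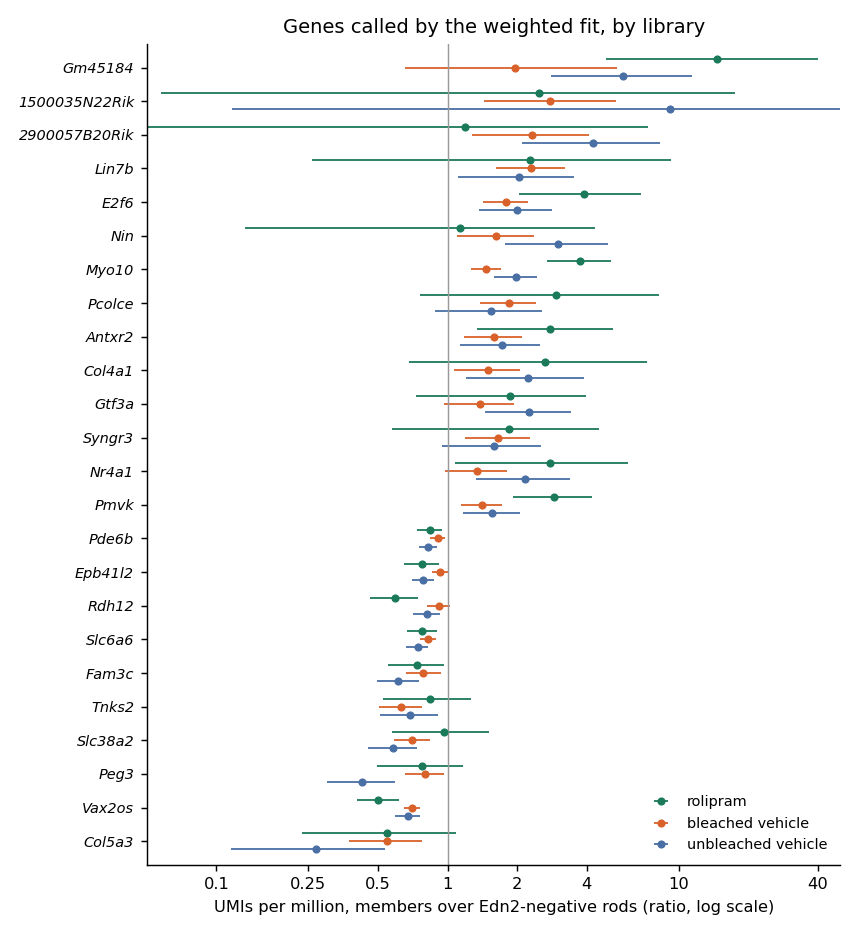
Ratio of CPM in members over Edn2-negative rods (log axis) for the 24 genes named from the weighted fit, in the rolipram, bleached vehicle and unbleached vehicle libraries. Points are ratios and bars exact 95% counting intervals, cut at 0.05 and 50, with the line at 1 marking equal levels. All points of a gene lie on 1 side of the line because the naming rule required it. The rolipram ratio of Myo10 (3.74) and E2f6 (3.88) lies above those of the vehicle libraries.

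Across the fixed lists, the trend fit called 0 members of any list. Beside the counts below, 12.4% of all tested genes were higher and 17.9% lower in all 3 libraries. Transcripts of the mitochondrial genome, which encodes 13 subunits of the respiratory chain, were higher in members of all 3 libraries for 9 of 13 and lower for 0, with a median log2 difference of 0.15 against -0.07 over all tested genes, and the weighted fit called 8 of them higher. Nuclear genes of oxidative phosphorylation were higher in all 3 for 15 of 42 and lower for 1 (median 0.11). Beside this, median mitochondrial shares of UMIs were 2.34%, 1.69% and 2.57% in rolipram, bleached vehicle and unbleached vehicle members, against 2.50%, 1.58% and 1.97% in Edn2-negative rods. Cytosolic ribosomal protein genes, looked up after the weighted calls were seen, were higher in all 3 for 44 of 80 and lower for 2 (median 0.18), and 15 were among the 71 weighted calls.

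Photoreceptor function lists were near the median of all tested genes, of which 12.4% were higher and 17.9% lower in all 3 libraries. Of 19 rod phototransduction genes, 2 were higher and 5 lower in all 3 libraries (median -0.07), and of 18 outer segment and cilium genes 3 and 5 (-0.04). Rcvrn, the calcium sensor recoverin, stood at 2800.3 CPM in rolipram, 2365 CPM in bleached vehicle and 3151 CPM in unbleached vehicle members, against 2591, 2001 and 2703 CPM in Edn2-negative rods. Impg2, a proteoglycan of the matrix around photoreceptors, stood at 448 CPM, 725 CPM and 637 CPM, against 319, 604 and 448 CPM. Rcvrn and Impg2 were thus higher in all 3 libraries, while Pde6b, named above among the lower genes, went the other way. Of 13 photoreceptor transcription factors 1 was higher, Neurod1, at 2759, 3323 and 3295 CPM against 1912, 3266 and 2603 CPM, and 4 were lower, Crx, Nrl, Rorb and Samd11. Ribbon synapse genes had 2 higher and 4 lower of 19 (median -0.06).

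Stress lists were mixed, beside 12.4% of all tested genes higher and 17.9% lower in all 3 libraries. Hypoxia response genes had 0 higher and 5 lower of 14 (median -0.15), the 5 being Pdk1, Slc2a1, Ndrg1, Ddit4 and Kdm3a. Heat shock genes had 0 and 0 of 14, ATF4 and unfolded protein genes 5 and 3 of 20, NRF2 and oxidative stress genes 1 and 5 of 16, and cell death and p53 genes 2 and 3 of 14. Immediate early genes had 5 higher, Fos, Egr1, Nr4a1, Atf3 and Btg2, and 2 lower, Jun and Dusp1, of 16 (median 0.06). STAT3 and acute-phase genes had 4 higher, Socs3, Bcl3, Cebpd and Il6st, and 2 lower, Lifr and Tnfrsf12a, of 11 (median 0.17). Of 8 interferon and MHC class I genes outside the gate, 2 were higher in all 3, Irf9 among them, and 0 lower. The shares of cells with an interferon gate gene, given above, are a description only. Those genes are part of the rule, and members had more UMIs per cell.

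For the stress genes Cebpd, Irf9 and Gadd45b, the ratio of members over Edn2-negative rods was largest in rolipram. The trend fit called none of them (adjusted p 0.59 to 0.71), while the weighted fit called each. Cebpd, an acute-phase transcription factor, stood at 289.7 CPM in rolipram, 449.8 CPM in bleached vehicle and 444 CPM in unbleached vehicle members, against 58.9, 387 and 201 CPM in Edn2-negative rods. The ratios were 4.92 (3.45 to 6.88), 1.16 (1.02 to 1.32) and 2.20 (1.86 to 2.60), with intervals that did not overlap, though no test compared them. Edn2-negative rods may include rods whose Edn2 was not captured, and members were 3.61%, 18.0% and 8.22% of rods in that order of libraries. How far this moves the ratios was not tested. Müller glia of these libraries held 2291, 2232 and 1940 CPM of Cebpd, so it was left out of the named genes as possible free RNA. Cones held 6.58, 43.4 and 17.0 CPM and amacrine cells 7.14, 24.0 and 8.11 CPM, below the rods of their library. The summed Müller list of 12 genes was at 538, 734 and 677 CPM in members, against 546, 794 and 590.3 CPM in Edn2-negative rods, with 2, 0 and 1 of its genes at 0 in members. The sum was thus higher in members of unbleached vehicle only. The part of free RNA in the Cebpd values was not tested.

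Irf9, the DNA-binding subunit of the interferon-stimulated factor, stood at 96.6 CPM in rolipram, 165 CPM in bleached vehicle and 180.1 CPM in unbleached vehicle members, against 29.0, 154 and 72.3 CPM in Edn2-negative rods. Its ratios were 3.33 (1.76 to 5.83), 1.07 (0.866 to 1.32) and 2.49 (1.89 to 3.25). Gadd45b, a stress-induced regulator of p38 signalling, was at 124, 297 and 104 CPM against 37.0, 212 and 62.1 CPM, with ratios of 3.35 (1.93 to 5.50), 1.40 (1.19 to 1.64) and 1.68 (1.17 to 2.35). For Irf9 and Gadd45b the rolipram intervals, from 14 and 18 member UMIs, overlapped those of unbleached vehicle but not those of bleached vehicle. Agtpbp1, a tubulin deglutamylase whose loss makes mouse photoreceptors degenerate, was at 1304, 1754 and 1337 CPM against 502, 1465 and 861 CPM. Gnb3, a transducin subunit of cones, was at 676, 1134 and 814 CPM against 307, 970.5 and 545 CPM, and it made up most of the cone marker sum, which was 855, 1276 and 966 CPM in members and 515, 1139 and 709 CPM in Edn2-negative rods. These 4 genes were picked from lists and weighted calls after their values were seen, and the part of cone RNA in Gnb3 was not tested.

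Levels were also listed by the number of Edn2 UMIs in a member. Edn2 is part of the rule and the genes were picked after their values were seen, so these levels are a description only. Members with 2 or more Edn2 UMIs (16 rolipram, 107 bleached vehicle and 48 unbleached vehicle cells) held Cebpd at 283, 448 and 397 CPM, against 291, 451 and 462 CPM in members with 1. Agtpbp1 stood at 1822, 1672 and 1219 CPM against 1197, 1789 and 1381 CPM, and E2f6 at 162, 265 and 111 CPM against 83.1, 125 and 90.9 CPM. Myo10 stood at 688, 343 and 351 CPM against 241, 345 and 238 CPM, and Mt1 at 121, 420.2 and 73.9 CPM against 83.1, 487 and 437 CPM. The rolipram values rest on few UMIs, as all 94 rolipram members together held 14 of E2f6 and 46 of Myo10. Depth was not matched between these kinds of member.

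Between libraries, members were compared where both had at least 50 cells, so no ratio was taken for BC11-38, and bleached vehicle is shared by both comparisons. In bleached over unbleached vehicle members, 80 genes out of 4559 passed 2-fold upwards (1.75%) and 13 downwards (0.285%), or 51 and 23 with TMM scaling, with a median log2 ratio of 0.06 in members and 0.06 in Edn2-negative rods. Of the named higher genes, Itga4, an integrin subunit, stood at 176 against 48.2 CPM, 3.65-fold higher (2.25 to 6.27). In Edn2-negative rods it was at 148 against 73.4 CPM, 2.01-fold higher (1.71 to 2.37). Rhbdd3 was 5.02-fold (2.01 to 16.2), Arhgap17, a GTPase-activating protein, 4.45-fold (1.91 to 12.7), and Poc1b, a centriole protein, 3.58-fold higher (1.83 to 7.80). Svil, an actin-binding protein, stood at 59.6 against 17.8 CPM and 2310039H08Rik at 73.2 against 22.8 CPM. These 5 rested on 5 to 10 unbleached UMIs each. In Edn2-negative rods, 2310039H08Rik was at 50.4 against 33.5 CPM and the other ratios lay between 0.990 and 1.39.

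Hspa8, the constitutive Hsc70 chaperone, was among 2 genes named lower, at 434 CPM in bleached and 855 CPM in unbleached vehicle members, 1.97-fold lower (1.69 to 2.31), with 474 and 799 CPM in Edn2-negative rods. Ip6k2, an inositol hexakisphosphate kinase, was 2.04-fold lower in members (1.62 to 2.58). Its Edn2-negative ratio of 0.517 (0.465 to 0.573) was close to the member ratio of 0.490 (0.387 to 0.618). Within the heat shock list, 1 of 12 genes was at least 2-fold lower and 0 higher: Dnaja1, a cochaperone, stood at 129 against 261 CPM.

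The stress lists differed between bleached and unbleached members in few genes. Socs3, the feedback inhibitor of JAK-STAT signalling, stood at 161 against 55.8 CPM, 2.89-fold higher (1.82 to 4.78), and Gadd45b at 297 against 104 CPM, 2.85-fold (2.04 to 4.09). Bcl3, a partner of NF-kB, was at 70.4 against 22.8 CPM (3.09-fold, 1.51 to 7.12) and Ier2, an immediate early gene, at 274 against 124 CPM (2.20-fold, 1.60 to 3.07). Edn2-negative rods had ratios of 2.16 for Socs3, 3.41 for Gadd45b, 3.69 for Bcl3 and 2.07 for Ier2. Of the lists, 3 of 8 STAT3 and acute-phase genes and 1 of 12 immediate early genes passed 2-fold upwards, as did 1 of 11 ATF4 and unfolded protein, 0 of 8 NRF2, 0 of 12 heat shock and 0 of 10 hypoxia genes. None of 19 rod phototransduction genes passed 2-fold either way. Over all genes counted, 1.75% passed 2-fold upwards and 0.285% downwards. Cebpd and Irf9 in members were at 449.8 against 444 CPM (ratio 1.01, 0.841 to 1.22) and 165 against 180.1 CPM (0.918, 0.679 to 1.25). In Edn2-negative rods they were 1.92-fold (1.74 to 2.12) and 2.13-fold higher (1.82 to 2.51). For these 2 genes the intervals of members and Edn2-negative rods did not overlap. The same sums gave their ratios of members over Edn2-negative rods above, so this is no separate observation.

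In rolipram over bleached vehicle members, 28 genes out of 3774 passed 2-fold upwards (0.742%) and 183 downwards (4.85%), with a median log2 ratio of -0.08. STAT3 and acute-phase genes held 4 of the 183 among 8 counted. Socs3 had 2 UMIs against 119, or 13.8 against 161 CPM (ratio 0.0856, 0.0102 to 0.316), and Mt1, a metallothionein, stood at 89.7 against 467 CPM (0.192, 0.101 to 0.332). Mt2 had 0 UMIs against 65, and Bcl3 1 against 52. Both rod groups showed this, as Socs3 was at 13.3 against 119 CPM and Mt1 at 76.6 against 550.1 CPM in Edn2-negative rods.

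Other named lower genes were Flot2, a membrane raft protein, with 0 UMIs against 62 (ratio at most 0.312 by the same exact interval), and H2-D1, an MHC class I heavy chain, with 3 against 91 (ratio 0.168, 0.0340 to 0.506). Btc, the EGF-family ligand betacellulin, had 5 against 110 (0.231, 0.0737 to 0.557), Lin7b 2 against 60 and the predicted gene Gm8797 6 against 196. All of these were lower in Edn2-negative rods too. Their ratios there were 0.438 for Flot2, 0.269 for H2-D1, 0.426 for Btc, 0.171 for Lin7b and 0.221 for Gm8797. Among interferon and MHC class I genes outside the gate, 3 of 4 counted were at least 2-fold lower, against 4.85% of all genes counted. Named higher were Gm10800 at 407 against 12.2 CPM, Ube4bos1 at 152 against 51.5 CPM and Lars2, a mitochondrial leucyl-tRNA synthetase, at 517 against 218 CPM. Edn2-negative rods had ratios of 78.4 for Gm10800, 1.51 for Ube4bos1 and 1.85 for Lars2. Reads of Gm10800 and Gm8797 may be shared with near-identical sequence, so their values are uncertain.

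For 5 genes picked as examples, the rolipram over bleached vehicle ratio was nearer 1 in members than in Edn2-negative rods. These ratios use the same sums as the ratios of members over Edn2-negative rods, so they restate that pattern and are no separate observation. How many of the 3774 genes did so was not counted. Flot2, H2-D1 and Btc went the other way, as H2-D1 (0.168 against 0.269) and Btc (0.231 against 0.426) were further from 1 in members. Junb, an AP-1 subunit, stood at 386 against 948 CPM in rolipram and bleached vehicle members (ratio 0.407, 0.305 to 0.535), and at 221 against 988 CPM in Edn2-negative rods (0.224, 0.206 to 0.242). Gadd45b had a ratio of 0.418 (0.243 to 0.677) in members and 0.175 (0.144 to 0.212) in Edn2-negative rods. Cebpd had 0.644 (0.456 to 0.890) and 0.152 (0.131 to 0.177), Irf9 0.584 (0.310 to 1.02) and 0.188 (0.150 to 0.234), and Myo10 0.922 (0.658 to 1.27) and 0.362 (0.314 to 0.416). The member intervals of Irf9 and Myo10 spanned 1. For all 5 genes the intervals of the 2 kinds of rod did not overlap. They cover counting error only, no test of the difference was run, and the 5 were picked after their values were seen.

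**Figure D4:**
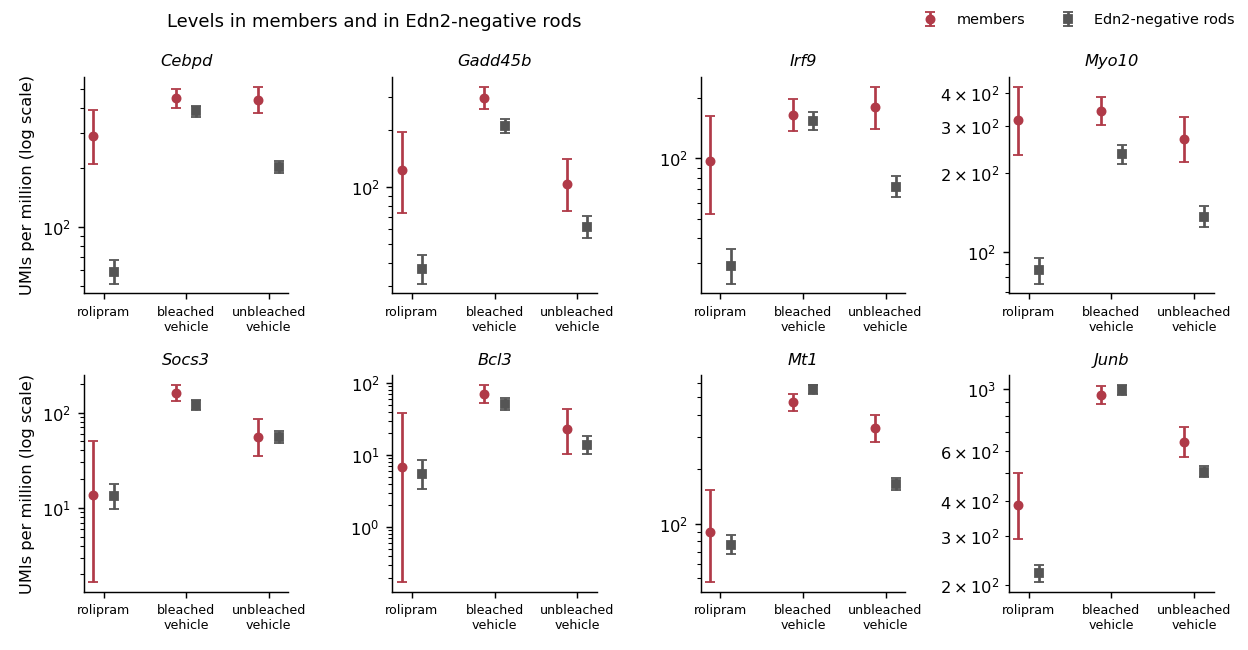
Levels of 8 genes in CPM (log axes) in members and in Edn2-negative rods of the rolipram, bleached vehicle and unbleached vehicle libraries, with exact 95% counting intervals. Cebpd stood at 289.7, 449.8 and 444 CPM in members and 58.9, 387 and 201 CPM in Edn2-negative rods, whereas Socs3 was at 13.8, 161 and 55.8 CPM in members and 13.3, 119 and 55.1 CPM in Edn2-negative rods.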

How the data were processed

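Single-cell RNA-seq of papain-dissociated retina was deposited as 1 matrix. Per the file headers, the authors gave each value on a natural log scale, as ln(1 + x) with x in UMIs per 10000. Inverting this returned whole UMIs for 100% of values (tolerance 0.001), 140410160 in total. The submitters' processing notes list Cell Ranger 6.0.1, Seurat 3.2.2 and mm10, but no roles. Genes per cell started at 497 and mitochondrial shares ended at 19.99%; the authors' filters are not stated. A further drug group named in the series text was not analysed here. No doublet caller was run.

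The design had assumed log values, so no count model was used. UMIs were summed per library and class and tested with limma 3.58.1 (R 4.3.3): log2 CPM with a pseudocount of 0.5, a trend, the library as block, genes with a mean of at least 5 CPM and 50 UMIs, and Benjamini-Hochberg adjustment. Libraries pair members with Edn2-negative rods of the same mice. Genes of the rule were left out. The fit was tested on simulated data. Shares have exact Clopper-Pearson intervals and ratios between libraries exact conditional Poisson intervals at 95%, for counting error only, with 50 UMIs over both and 2-fold as the threshold.

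Members and gene lists were chosen with earlier results of these data known. Named genes were the 14 highest and 10 lowest called genes with 1 direction in every library, or the 6 highest and lowest ratios with an interval beyond 1.5-fold. Up to 4 genes of each list and the endothelin genes were also named. Genes of the rule, mitochondrial, Xist, Tsix and Y-linked genes were left out, as were those over 3 times higher in another class (possible free RNA). Since the planned fit called none, the rule was applied to the weighted fit. Alternatives covered scaling, filters, pseudocount, depth, gates, sex of cells and each library left out. A few genes are not reported here.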

Additional observations from a re-analysis of the deposited data

How the results depend on the processing

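Member shares kept their order in every alternative run. Moves past the counting interval were, at 2 or more Edn2 UMIs, 0.614% (rolipram), 0.0440% (BC11-38), 4.54% (bleached vehicle) and 2.08% (unbleached vehicle); thinned to 1000 UMIs, 2.70%, 13.6% and 6.61% for all but BC11-38; with no interferon limit, 20.2% in bleached vehicle; and in Y-linked rods, 0.521% with BC11-38 and 11.5% in unbleached vehicle. Against Edn2-negative rods, the trend fit called 38 genes higher and 44 lower with no filter on low values, 0 and 1 with a pseudocount of 2, and 8 to 38 and 2 to 30 with 1 library left out. The weighted fit called 71 and 16, 65 and 25 with TMM scaling, 2 lower within the member depth range, and 19 to 108 and 5 to 28 with 1 library left out (51 and 21 without rolipram). Lin7b reversed in the trend fit, to log2 differences of -0.89 within the depth range and -0.31 in Y-linked rods, against 0.75 and 1.11 in the weighted fit. Bleached over unbleached member counts were 51 higher and 23 lower with TMM scaling, 432 and 78 at 20 UMIs and 10 and 3 at 100 UMIs. Rolipram over bleached vehicle counts were 172 and 728 at 20 UMIs and 6 and 30 at 100 UMIs, with 12 higher in members of 1000 to 4000 UMIs, so these counts depend on the UMI minimum. Y-linked members alone were too few (20 with rolipram) for that comparison. Ratios of single genes rest on few UMIs, most of all with rolipram. No paired analysis beyond the library block was possible because each group is 1 library.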
